A study of Mus musculus with 24 samples.

Results

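The transcripts of 10 glycolysis enzymes were followed through all 24 RNA-seq libraries of the series: *Hk1*, *Hk2*, *Gpi1*, *Pfkl*, *Pfkp*, *Aldoa*, *Tpi1*, *Pgk1*, *Eno1* and *Ldha*. They were chosen by gene name and are 10 of the 55291 genes counted. The libraries came from proliferating C2C12 myoblasts, an immortal mouse line of muscle precursor cells, although the sample labels call them primary myoblasts and the knockdowns Lipofectamine-mediated. The 4 cell lines were each stably transduced with lentiviral shRNA and kept under puromycin. The scr control carried a scrambled shRNA. *Baf180* knockdown (KD) cells carried an shRNA against the Baf180 subunit (gene *Pbrm1*) of the PBAF chromatin remodeling complex. *Baf250a* KD cells carried one against the Baf250a subunit (gene *Arid1a*) of the canonical BAF complex, and *Brd9* KD cells one against Brd9 of the non-canonical BAF complex. Each cell line was grown without added metal (NT), with 100 µM CuSO4 (Cu) or with 50 µM ZnSO4 (Zn) for 48 h, in 2 independent biological replicates. The study lists 2 shRNAs for each subunit, and does not say which were used here or whether replicates were selected separately. An effect of a KD can therefore not be told apart from a difference between selected populations.

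Glycolysis splits glucose into pyruvate in the cytosol, yields ATP without oxygen, and supplies building blocks to dividing cells such as myoblasts. Hexokinase and phosphofructokinase catalyse its early, largely irreversible steps, and pyruvate kinase an irreversible one at its end. Several enzymes between them, such as aldolase, triosephosphate isomerase and enolase, work near equilibrium, while lactate dehydrogenase turns pyruvate into lactate and restores NAD+. Several steps are served by isozymes from separate genes. Many of these genes are known targets of HIF1 and MYC, transcription factors whose binding sites hold the core ACGTG or GCGTG (HIF1) and CACGTG (MYC).

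In order of the pathway, *Hk1* (GRCm38 chr10:62268855-62379908, minus strand) and *Hk2* (chr6:82725025-82774454, minus) encode hexokinases, which phosphorylate glucose. *Gpi1* (chr7:34201330-34230336, minus) encodes glucose-6-phosphate isomerase. *Pfkl* (chr10:77986947-78010083, minus) and *Pfkp* (chr13:6579768-6648777, minus) encode the liver-type and platelet-type phosphofructokinases, and *Aldoa* (chr7:126795234-126800751, minus) encodes aldolase A, which splits the phosphorylated hexose. *Tpi1* (chr6:124810586-124814296, minus) encodes triosephosphate isomerase, and *Pgk1* (chrX:106187100-106203699, plus) encodes phosphoglycerate kinase, an ATP-forming enzyme. *Eno1* (chr4:150236721-150248879, plus) encodes enolase 1, and *Ldha* (chr7:46841475-46855627, plus) encodes lactate dehydrogenase A. The steps of Gapdh, Pgam and Pkm are not among the 10 and are given separately.

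The promoters of 3 members are shown: *Ldha* and *Pgk1*, which fell with Zn in scr cells and rose with Cu in *Baf180* KD cells, and *Pfkp*, whose level followed the cell line. *Pfkl*, *Tpi1* and *Aldoa* were called in both of these metal comparisons as well, and their windows are given by counts only. Each run holds the 250 bases before the transcript start in RefSeq (GRCm38.p6), 5′ to 3′ on the strand of the gene, with the letters ACGTG or GCGTG in capitals wherever they stand on either strand.
Ldha, chr7:46845554-46845803, plus strand: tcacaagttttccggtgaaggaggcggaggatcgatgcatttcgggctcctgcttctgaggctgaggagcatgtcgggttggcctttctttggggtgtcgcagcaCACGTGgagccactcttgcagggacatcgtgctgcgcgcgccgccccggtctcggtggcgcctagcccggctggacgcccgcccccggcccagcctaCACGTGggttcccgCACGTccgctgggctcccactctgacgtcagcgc
Pgk1, chrX:106186850-106187099, plus strand: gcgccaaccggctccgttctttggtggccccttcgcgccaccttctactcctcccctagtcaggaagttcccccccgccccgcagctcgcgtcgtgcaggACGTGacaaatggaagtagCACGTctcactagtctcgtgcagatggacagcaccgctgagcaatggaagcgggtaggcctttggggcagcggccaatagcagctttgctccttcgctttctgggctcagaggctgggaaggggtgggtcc
Pfkp, chr13:6648772-6649021, minus strand: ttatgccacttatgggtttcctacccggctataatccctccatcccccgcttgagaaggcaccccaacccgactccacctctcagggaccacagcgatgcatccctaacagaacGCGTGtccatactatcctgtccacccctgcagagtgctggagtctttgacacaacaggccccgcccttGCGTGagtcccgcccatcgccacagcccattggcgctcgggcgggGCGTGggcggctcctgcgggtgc
In this *Ldha* window ACGTG was found 5 times over both strands, since each CACGTG reads the same on both. The other RefSeq window of *Ldha* (chr7:46846832-46847081) held 0 ACGTG and 1 GCGTG. The *Pgk1* window held ACGTG 2 times, on opposite strands, and the *Pfkp* window held GCGTG 3 times and no ACGTG. Of the members not shown, the *Pfkl* window held 0 ACGTG and 1 GCGTG, and the *Tpi1* window held neither. The *Aldoa* windows held ACGTG 1, 1 and 0 times and no GCGTG. Over the 25642 RefSeq windows of this length, 17.4% held ACGTG and 31.5% held GCGTG, against 5 and 7 of the 16 windows of the members. The core of the metal response element, searched on both strands as TGCACNC and TGCGCNC, stood in 10.3% and 14.5% of all windows and in 0 and 7 of those 16. Some of the 16 overlap, being starts of 1 gene. These are matches of letters and describe no binding.

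All 10 members were counted in every library, from 45.3 to 2155 CPM (counts scaled to 1000000 per library, adjusted by TMM over the 24 libraries), and all 10 passed the filter on low counts in every comparison. Together they took between 0.415% and 0.695% of the counts of a library. Total counts per library ran from 495778 to 75179394. The smallest total belongs to replicate 2 of *Baf250a* KD with Zn, where the 10 members had 2528 counts in all, against at least 54826 in each other library. The dependence of counts on GC content also differed between libraries: its slope, in log2 units per 10 percentage points and relative to the mean library, was 0.11 and 0.32 in the untreated scr libraries, -0.25 and -0.34 in the scr Zn libraries, and between -0.22 and 0.28 in the KD libraries. Transcripts of the members were 48.0% (*Pfkp*) to 57.4% (*Eno1*) GC. Each comparison was therefore also computed after a smooth trend on GC content and transcript length was removed from each library, called the GC correction here. In the untreated KDs the log2 fold change against scr was -0.76 for *Pbrm1*, -1.53 for *Arid1a* and -0.76 for *Brd9* (edgeR adjusted p between 5.31e-08 and 0.0060), each in its own KD. Myoblast markers were present in every line (summed level 3001 to 4428 CPM in scr, 1416 to 2549 in the KDs), with 6 of 8 above 1 CPM in *Baf250a* KD and 8 of 8 elsewhere. *Itga7*, an integrin of muscle cells, fell in the 3 untreated KDs against scr (-1.22, -2.14 and -0.94 in *Baf180*, *Baf250a* and *Brd9* KD), as did *Des*, desmin (-1.11, -1.52 and -0.87). *Myf5*, a myogenic transcription factor, fell in *Baf180* KD (-1.27) and *Baf250a* KD (-1.77), and *Msc* in *Baf250a* KD (-3.77). The 12 markers of other cell types summed to 100.2 to 218 CPM, with 2 or 3 above 1 CPM in each line, and 0, 1, 4 and 2 of them were at 0 in every library of scr, *Baf180*, *Baf250a* and *Brd9* KD. *Col2a1*, a collagen of cartilage, was at 37.8 ± 0.573 CPM (SD, n = 2) in untreated *Baf250a* KD and 0.0870 ± 0.0573 in scr. *Sox9*, a transcription factor of cartilage cells, rose in *Baf180* KD (0.40) and *Baf250a* KD (0.43). Their part in the results on the members was not tested.

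Per kb of exon sequence, which allows levels to be compared between genes, the later part of the pathway was far more abundant than its first steps in untreated scr cells. *Aldoa* was at 549.8 ± 40.6 CPM per kb (SD, n = 2), *Tpi1* at 346 ± 37.3, *Ldha* at 249 ± 49.997, *Eno1* at 187 ± 22.4 and *Pgk1* at 131 ± 28.8. *Gpi1* was at 83.2 ± 8.73 CPM per kb. The hexokinases lay together, *Hk2* at 55.7 ± 3.89 and *Hk1* at 54.2 ± 4.27, a gap within their SD. The phosphofructokinases were lowest, *Pfkl* at 34.3 ± 4.69 and *Pfkp* at 16.7 ± 1.55. This order depends in part on the exon lengths, which ran from 2244 bases (*Pgk1*) to 13401 (*Pfkp*) and can exceed the transcript made in these cells. Before the division, *Pfkl* (229 ± 31.3 CPM) and *Pfkp* (223 ± 20.7) were level, and *Gpi1* (537 ± 56.4) lay above *Pgk1* (294 ± 64.7). The levels of *Pgk1* and *Eno1* may be understated: only uniquely mapped reads were kept, and 53.9% and 26.0% of the 50-base stretches of their transcripts also occur in transcripts of other genes, mostly *Pgk1-rs7* and *Eno1b*. For the other 8 members this share was at most 9.03%. In all, 6 members have a gene overlapping on the opposite strand, but the authors counted by strand.

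**Figure D1:**
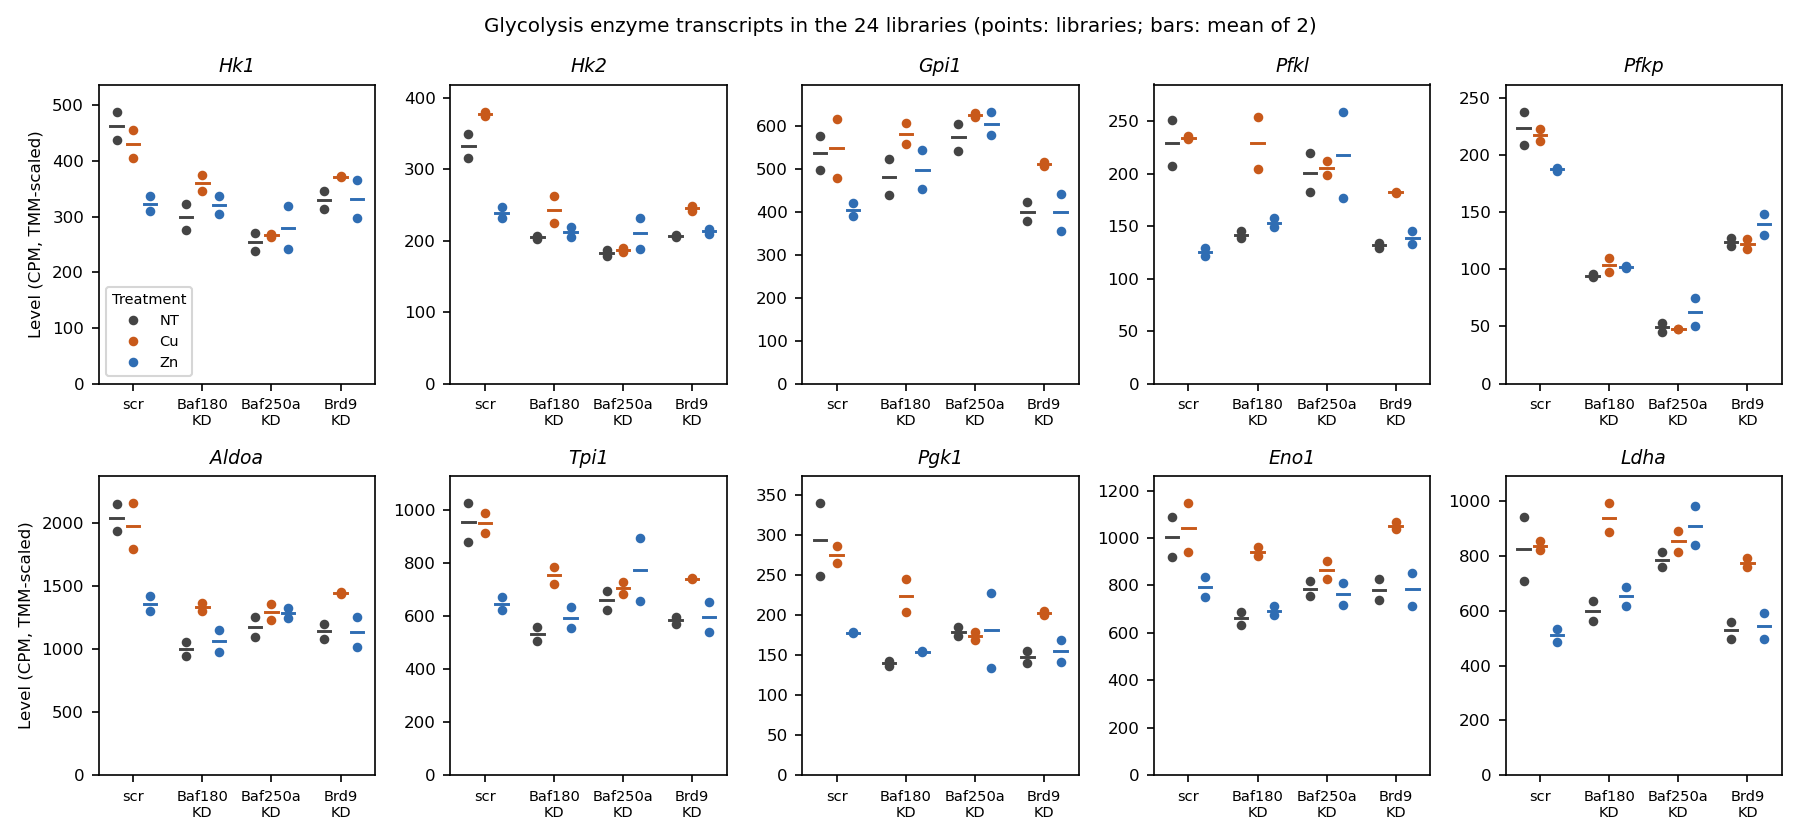
Level of each member (CPM, TMM-scaled, linear axis from 0) in scr control and the 3 KD lines, without metal (NT) or with Cu or Zn. Points are the 24 libraries and bars the mean of 2; most members are highest in scr NT and scr Cu, while *Pfkp* separates the lines at every treatment.

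Without added metal, most glycolysis enzymes were lower in each KD than in scr cells. In *Baf180* KD cells 9 of the 10 fell and 0 rose, in *Baf250a* KD cells 7 fell and 0 rose, and in *Brd9* KD cells all 10 fell (edgeR quasi-likelihood test, Benjamini-Hochberg adjusted p under 0.05). Of all genes tested, 41.0%, 57.8% and 29.2% were called in these comparisons, and 19.3%, 28.9% and 14.1% were called lower. The median log2 fold change of the members was -0.68, -0.63 and -0.68, beside 0.03, 0.0030 and 0.01 over all genes tested. The 3 comparisons share the same 2 untreated scr libraries. In bulk RNA, fewer cells of a type and less RNA per cell cannot be told apart.

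*Aldoa*, the most abundant member, was at 1933 and 2146 CPM in the untreated scr libraries, 1054 and 939.9 in *Baf180* KD, 1249 and 1093 in *Baf250a* KD and 1199 and 1077 in *Brd9* KD. Every KD library lay below both scr libraries. The log2 fold change was -1.02 (SE 0.12, adjusted p = 4.68e-05 in edgeR) in *Baf180* KD, -0.80 (SE 0.11, adjusted p = 3.67e-05) in *Baf250a* KD and -0.82 (SE 0.10, adjusted p = 0.0010) in *Brd9* KD. *Pgk1* was at 249 and 340.3 CPM in scr, 143 and 137 in *Baf180* KD, 185 and 174 in *Baf250a* KD and 156 and 140.0 in *Brd9* KD. The KD libraries again lay below both scr libraries, and the log2 fold changes were -1.06 (SE 0.14), -0.72 (SE 0.13) and -0.98 (SE 0.14). *Tpi1* was at 881 and 1026 CPM in scr and between 507 and 695.5 in the 6 untreated KD libraries, with log2 fold changes of -0.83, -0.53 and -0.69.

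The hexokinases fell in all 3 KDs. *Hk2*, the form induced in dividing and insulin-stimulated cells, was at 316 and 349 CPM in scr, 207 and 202 in *Baf180* KD, 187 and 178 in *Baf250a* KD and 208 and 205 in *Brd9* KD. The untreated KD libraries spanned 178 to 208 CPM, with no overlap with scr. Its log2 fold change was -0.68 (SE 0.10) in *Baf180* KD, -0.86 (SE 0.10) in *Baf250a* KD and -0.67 (SE 0.09) in *Brd9* KD. *Hk1*, the form found in most tissues, was at 437 and 488 CPM in scr and between 238 and 345 in the untreated KD libraries, with log2 fold changes of -0.61, -0.86 and -0.47. *Hk1* made up 49.2% and 49.5% of the summed hexokinase level per kb in untreated scr libraries and 48.3% to 53.7% in untreated KD libraries.

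*Gpi1*, *Pfkl* and *Ldha* were not called in every KD. *Ldha* was at 707 and 941 CPM in untreated scr, 635 and 563 in *Baf180* KD, 814 and 759 in *Baf250a* KD and 561 and 498 in *Brd9* KD. The *Baf250a* KD libraries lay between the scr libraries, and the others lay below both. Its log2 fold change was -0.45 (SE 0.14, adjusted p = 0.022 in edgeR) in *Baf180* KD, -0.07 (SE 0.13, adjusted p = 0.67) in *Baf250a* KD and -0.62 (SE 0.13, adjusted p = 0.012) in *Brd9* KD. *Pfkl* was at 207 and 251 CPM in scr, 145 and 139 in *Baf180* KD, 220.1 and 182 in *Baf250a* KD and 134 and 129 in *Brd9* KD, with log2 fold changes of -0.68, -0.19 (not called) and -0.78. *Gpi1* was called in *Brd9* KD alone (-0.41, SE 0.10, adjusted p = 0.021 in edgeR), with -0.15 in *Baf180* KD and 0.10 in *Baf250a* KD. *Eno1* had log2 fold changes of -0.58, -0.35 and -0.34, all called.

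**Figure D2:**
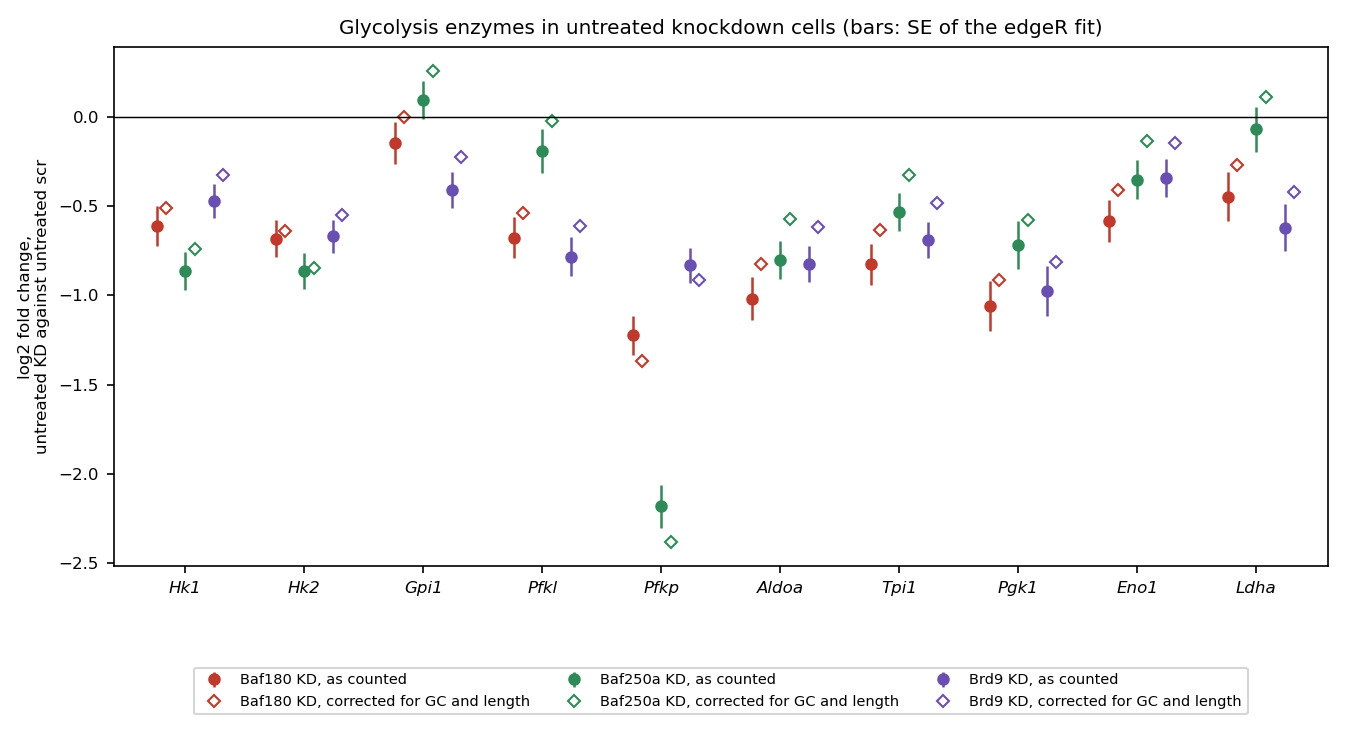
Log2 fold change of each member in untreated KD against untreated scr cells (2 libraries against 2), for the counts as deposited (filled, with the SE of the edgeR fit) and after the GC correction (open diamonds). All but *Gpi1* in *Baf250a* KD lie below 0 as counted, *Pfkp* in *Baf250a* KD is at -2.18, and the correction moves every member but *Pfkp* upward.

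With the GC correction 8 members were called lower in *Baf180* KD, 6 lower and *Gpi1* higher in *Baf250a* KD, and 9 lower in *Brd9* KD. *Ldha* in *Baf180* KD (-0.27), and *Eno1* in *Baf250a* KD (-0.14) and in *Brd9* KD (-0.15) lost the call, and *Gpi1* in *Baf250a* KD stood at 0.26 (adjusted p = 0.0069). Without replicate 2 of untreated *Brd9* KD, 6 members were called in that line; leaving out any other library gave between 8 and 10 there, between 8 and 9 in *Baf180* KD and between 6 and 9 in *Baf250a* KD. The 12 markers of differentiated muscle had a summed level of 2951 to 5464 CPM in the scr libraries and 424 to 1665 in the KD libraries, with 9 of them above 1 CPM in scr, 11 in *Baf180* KD and 8 in each other KD, and none at 0 in every library of a line. Much of that sum is *Ttn*, which encodes titin (log2 fold change -1.95, -2.22 and -1.24 in *Baf180*, *Baf250a* and *Brd9* KD). Gene by gene the list was mixed, with 6, 2 and 0 called higher and 1, 4 and 8 called lower, of 12, 9 and 9 tested. *Myh3*, embryonic myosin, and *Myog*, myogenin, rose in *Baf180* KD (2.76 and 2.36) and *Baf250a* KD (0.64 and 0.57) and fell in *Brd9* KD (-1.31 and -1.19). *Acta1*, skeletal actin, fell in *Baf250a* KD (-0.86) and *Brd9* KD (-1.44), and *Tnnt3*, a troponin, in *Brd9* KD (-1.44). The part of differentiation in the result was not tested.

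*Pfkp* stood apart from the other members by following the cell line far more than the metals, although it was called higher with Zn in *Baf250a* KD, as given below. Differences between lines made up 95.7% of its variance over the 24 libraries, against 25.3% (*Pfkl*) to 68.0% (*Hk2*) for the other 9. Its level was 186 to 238 CPM (median 210.2) in the 6 scr libraries, 118 to 149 (median 127) in *Brd9* KD, 93.2 to 110 (median 99.5) in *Baf180* KD and 45.3 to 75.004 (median 49.0) in *Baf250a* KD. These 4 ranges did not overlap, and each step of the order was called over the 3 treatments: *Brd9* KD against scr at -0.71 (SE 0.09, adjusted p = 1.09e-06 in edgeR), *Brd9* KD against *Baf180* KD at 0.36 (SE 0.09, adjusted p = 0.0044), and *Baf250a* KD against *Baf180* KD at -0.91 (SE 0.10, adjusted p = 4.14e-08). In these comparisons 30.4%, 29.7% and 40.6% of all genes tested were called. The untreated *Baf250a* KD libraries had 53.0 and 45.3 CPM against 208 and 238 in scr, a log2 fold change of -2.18 (SE 0.12, adjusted p = 1.08e-08 in edgeR) or 4.54-fold lower, and it was -2.39 after the GC correction.

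The makeup of the phosphofructokinase transcripts also differed between lines. Counting *Pfkm*, the muscle-type gene, as the third form, *Pfkp* made up 21.2% to 28.4% of the summed level per kb in scr libraries, 16.5% to 21.3% in *Brd9* KD, 11.5% to 14.9% in *Baf180* KD and 6.08% to 7.81% in *Baf250a* KD. The shares of scr and *Brd9* KD touched, at 21.2% and 21.3%, and the other ranges did not overlap. *Pfkl* was the most abundant form per kb in scr (36.7% to 47.9%), *Baf250a* KD (49.6% to 54.9%) and *Brd9* KD (41.5% to 51.0%). This ranking depends on the exon lengths: before the division, *Pfkp* was at 187 CPM and *Pfkl* at 125 CPM in scr with Zn. In *Baf180* KD with Zn, *Pfkm* (43.8% and 43.9%) passed *Pfkl* (42.4% and 41.9%) by a small margin. In scr cells Zn moved the share of *Pfkp* from 21.8% and 21.2% without metal to 26.8% and 28.4%, while that of *Pfkl* went from 43.5% and 45.0% to 37.3% and 36.7%. These shares are descriptions, with no test.

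**Figure D3:**
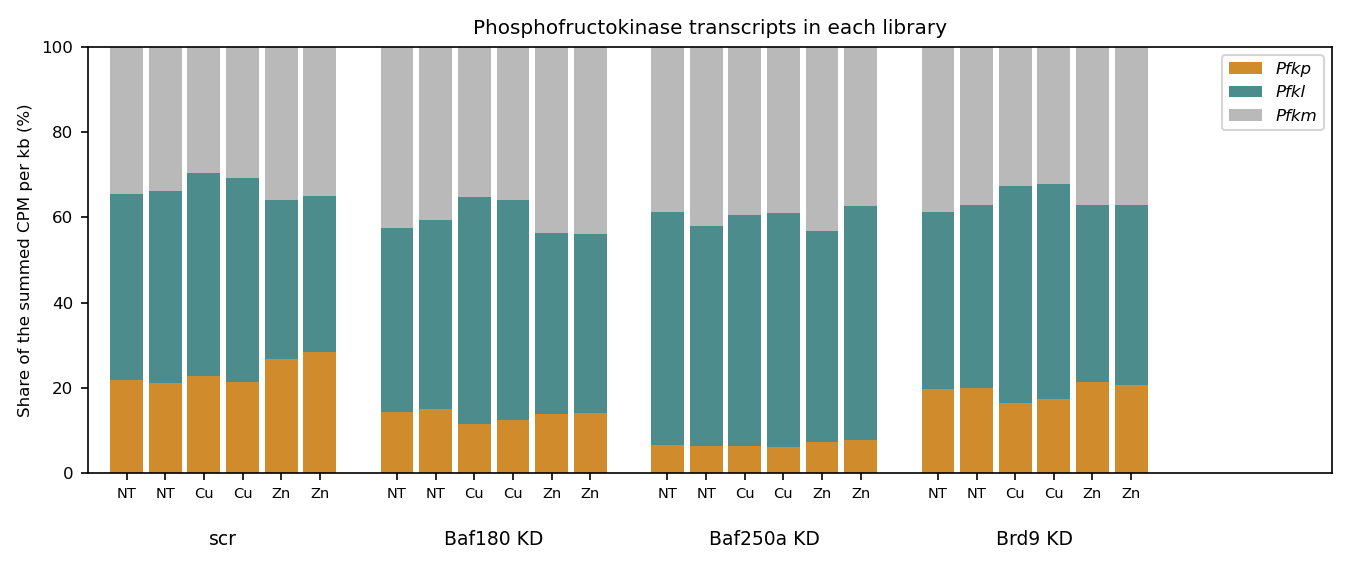
Share of *Pfkp*, *Pfkl* and *Pfkm* in their summed CPM per kb of exon sequence, 1 bar for each of the 24 libraries, grouped by cell line and treatment. The *Pfkp* share runs from 28.4% in a scr Zn library down to 6.08% in a *Baf250a* KD Cu library.

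Over the 3 treatments, with treatment as a term, 7 members were lower in *Baf180* KD than in scr cells and 0 higher (43.4% of all genes called, 19.4% lower), 6 were lower and *Gpi1* higher in *Baf250a* KD (56.4%, with 28.7% lower and 27.7% higher), and 5 were lower in *Brd9* KD (30.4%, 13.6% lower). *Aldoa*, *Hk2*, *Pgk1* and *Pfkp* were lower in all 3, with log2 fold changes of -0.66, -0.51 and -0.53 for *Aldoa* in *Baf180*, *Baf250a* and *Brd9* KD. Among the KDs, 2 members differed between *Baf250a* and *Baf180* KD (both lower, with 40.6% of all genes called and 21.2% lower), 2 between *Brd9* and *Baf180* KD (1 each way, with 29.7% called, 12.5% higher and 17.3% lower) and 5 between *Brd9* and *Baf250a* KD (2 higher and 3 lower, with 49.8% called, 24.8% higher and 25.0% lower). *Hk1* was lower in *Baf250a* KD than in *Baf180* KD (-0.28, SE 0.10, adjusted p = 0.020 in edgeR) and *Brd9* KD, while *Gpi1*, *Pfkl* and *Ldha* were higher in *Baf250a* KD than in *Brd9* KD. *Gpi1* ran from a median of 613 CPM in *Baf250a* KD (542 to 633) over 532 in *Baf180* KD and 488 in scr to 432 in *Brd9* KD (354 to 515). *Baf180* KD and scr, neighbours in that order, were not called different for *Gpi1* (0.07, SE 0.09), and neither were *Baf250a* and *Baf180* KD (0.22, SE 0.09, adjusted p = 0.056). With all genes of at least 1 count tested, 9 members were lower in *Brd9* KD than in scr, and without scr Zn replicate 2 there were 8. With the GC correction 9, 4 and 8 members differed between *Baf250a* and *Baf180*, *Brd9* and *Baf180*, and *Brd9* and *Baf250a* KD, against 2, 2 and 5 as counted. Without *Baf250a* KD Cu replicate 1, only *Pfkp* differed between *Baf250a* and *Baf180* KD, and the same gene alone between *Brd9* and *Baf180* KD without any 1 of 5 libraries (*Baf180* KD NT 1, Cu 2 or Zn 1, *Brd9* KD NT 1 or Zn 2).

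In scr cells Zn lowered 7 of the 10 members and raised 0, while Cu changed 0. Of all genes tested, 17.6% were called with Zn (7.13% lower) and 0.0333% with Cu. *Pfkl* fell from 207 and 251 CPM without metal to 129 and 122 with Zn, a log2 fold change of -0.78 (SE 0.10, adjusted p = 0.028 in edgeR). *Ldha* fell from 707 and 941 CPM to 533 and 487 (-0.60, SE 0.13, adjusted p = 0.029), and *Pgk1* from 249 and 340.3 to 179 and 177 (-0.64, SE 0.14, adjusted p = 0.029). All 4 libraries of each of these genes were in order, with both Zn libraries below both untreated ones. *Tpi1* (-0.47), *Aldoa* (-0.50), *Hk1* (-0.43) and *Hk2* (-0.39) were also called, and *Gpi1* (-0.32), *Eno1* (-0.25) and *Pfkp* (-0.16) were not. The median of the members was -0.45, beside -0.0053 over all genes. With Cu, *Hk2* alone had an unadjusted p under 0.05 in edgeR (0.20, adjusted p = 0.48), beside 1559 of 15002 genes, and DESeq2 called 0 members.

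After the GC correction the log2 fold changes of the members lay between -0.46 (*Pgk1*) and 0.12 (*Eno1*). In that fit 0 of the 10 were called, beside 13 of 15002 genes. The calls of the members were also lost without scr NT replicate 2, scr Zn replicate 1 or scr Zn replicate 2. In those fits nearly all calls over all genes were lost as well. The scr NT and scr Zn libraries hold the highest and the lowest GC slopes of the 24, 0.32 and -0.34. DESeq2 called 7 members (3248 of 12053 genes) and the fit of all 24 libraries 9 (4968 of 16524 genes).

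In the KD cells 0 members were called lower with Zn. In *Baf180* KD cells with Zn 0 were called by edgeR, 0 had an unadjusted p under 0.05 and DESeq2 called 0 (0.0197% of all genes were called), with log2 fold changes from 0.03 (*Hk2*) to 0.14 (*Tpi1*). In *Brd9* KD cells with Zn these 3 counts were also 0 (0.0334% of all genes), with values from -0.02 (*Aldoa*) to 0.16 (*Pfkp*). In *Baf250a* KD cells *Pfkp* rose (15.9% of all genes were called, 8.85% higher), from 53.0 and 45.3 CPM to 75.004 and 50.6, a log2 fold change of 0.55 (SE 0.12, adjusted p = 0.0028 in edgeR). The groups overlapped, and the second Zn library is the one with 495778 counts. Without it more members were called higher, and more of all genes were called. Without Zn replicate 1 or NT replicate 2 no member was called, and fewer of all genes were. DESeq2 and the GC correction called 0 members, beside 342 of 6187 and 956 of 14706 genes.

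Cu raised glycolysis enzymes in *Baf180* KD cells. Of the 10 members, 6 rose and 0 fell (13.8% of all genes were called, 5.46% higher), and the median log2 fold change was 0.43, beside -0.01 over all genes. *Pgk1* rose from 143 and 137 CPM to 245 and 205 (0.65, SE 0.09, adjusted p = 0.0064 in edgeR). *Pfkl* rose from 145 and 139 to 254 and 204 (0.66, SE 0.10, adjusted p = 0.0077), and *Ldha* from 635 and 563 to 993 and 887 (0.62, SE 0.10, adjusted p = 0.0082). In each, both Cu libraries lay above both untreated libraries, as they did for all 10 members. The share of all genes placed like this was not counted, so the order of the libraries is a description only. *Eno1* (0.48), *Tpi1* (0.47) and *Aldoa* (0.38) also rose, and *Gpi1* (0.24), *Hk1* (0.23), *Hk2* (0.22) and *Pfkp* (0.10) were not called. The GC slope was 0.27 and 0.10 in the Cu libraries and 0.0015 and -0.15 in the untreated ones. With the GC correction 4 members (*Pgk1*, *Ldha*, *Pfkl* and *Tpi1*) were called, at 0.30 to 0.55, beside 896 of 15241 genes. Without *Baf180* KD NT replicate 2 no member was called, and without Cu replicate 1 fewer were. In both fits most calls over all genes were lost as well.

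The other lines showed 0 called members with Cu, by edgeR. In *Brd9* KD cells (0.274% of all genes called) 8 of the 10 had an unadjusted p under 0.05 in edgeR, all higher. Of all genes, 2426 of 14978 had such a p in either direction. DESeq2 called 4 members, and 197 of 10677 genes. The largest value was that of *Ldha*, from 561 and 498 CPM to 760.2 and 792 (0.50, SE 0.09, adjusted p = 0.059 in edgeR). For *Pfkl* it was 0.42 (SE 0.07, adjusted p = 0.052), from 134 and 129 CPM to 182 and 183, and for *Pgk1* 0.40 (SE 0.08, adjusted p = 0.098). Both Cu libraries lay above both untreated ones for 9 members, all but *Pfkp*, and here too the share of all genes placed like this was not counted. With all genes of at least 1 count tested, 7 members were called, and 1060 of 26995 genes. In *Baf250a* KD cells (1.27% of all genes called) the values lay between -0.06 (*Pfkp*) and 0.14 (*Aldoa*), 0 had an unadjusted p under 0.05 and DESeq2 called 0.

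**Figure D4:**
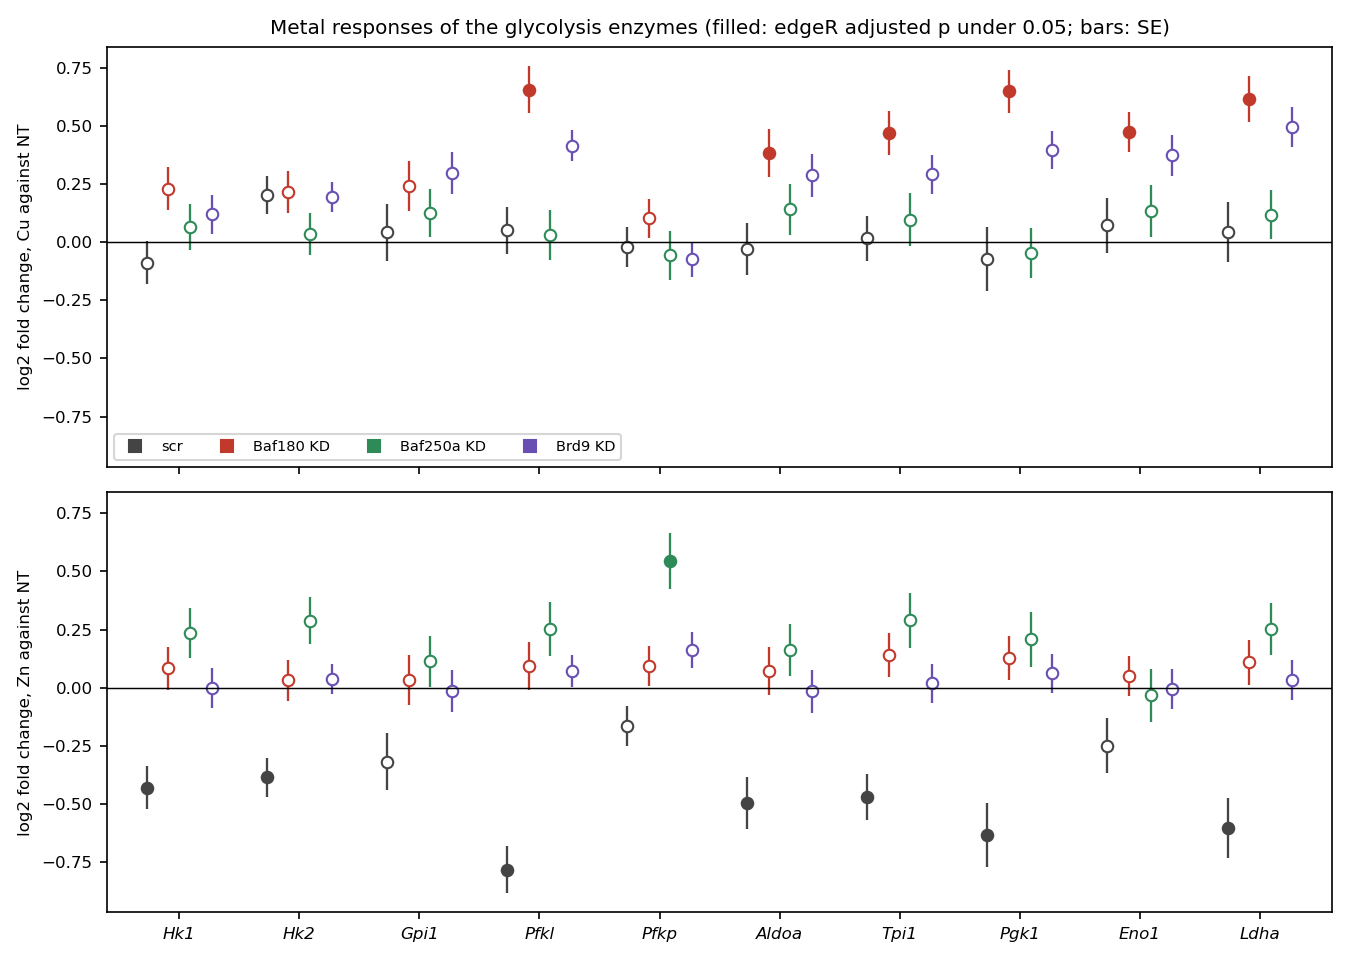
Log2 fold change of each member with Cu (top) and with Zn (bottom) against the untreated cells of the same line, with the SE of the edgeR fit; filled points have an adjusted p under 0.05. With Zn the scr values lie below 0 for every member (down to -0.78 for *Pfkl*), and with Cu the *Baf180* KD values lie above 0 for every member (up to 0.66 for *Pfkl*).

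Whether a KD changed the response itself was tested as a difference of responses over the 24 libraries. The Zn response of 7 members was more positive in *Baf180* KD than in scr cells (28.7% of all genes called, 16.1% higher), of 8 in *Baf250a* KD (30.5%, 17.3% higher) and of 7 in *Brd9* KD (11.1%, 5.86% higher), and less positive for 0. *Pfkl* had the largest differences, 0.98 (SE 0.18, adjusted p = 0.0012 in edgeR), 1.08 (SE 0.19, adjusted p = 4.15e-04) and 0.95 (SE 0.18, adjusted p = 0.023). The 3 differences share the scr libraries, whose own Zn response was the fall described above. Over all genes the median difference was 0.09, 0.06 and 0.09. With the GC correction 1 (*Pgk1*), 4 (*Tpi1*, *Ldha*, *Pfkp* and *Pgk1*) and 0 members were called, beside 947, 2659 and 0 of 16524 genes. The median over all genes became -0.03 in *Baf180* KD and -0.13 in *Baf250a* KD. The Cu response was more positive in *Baf180* KD than in scr for *Pgk1* (0.78, SE 0.21, adjusted p = 0.021), *Pfkl* (0.66, SE 0.18, adjusted p = 0.022) and *Ldha* (0.63, SE 0.18, adjusted p = 0.027), with 12.8% of all genes called and 5.39% higher. With the GC correction 0 members were called for this Cu difference, beside 115 of 16524 genes. The Cu difference was called for 0 members in *Baf250a* KD (0.0121% of all genes) and in *Brd9* KD (0.0363%), and DESeq2 also called 0 in each. An unadjusted p under 0.05 in edgeR was reached by 0 members in *Baf250a* KD. In *Brd9* KD 5 members reached it, beside 2759 of 16524 genes.

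Leaving out 1 library moved these counts, and with them the calls over all genes. Without scr NT replicate 2 the Zn difference of *Baf180* KD was called for fewer members. In that fit no member was called for the Zn difference of *Brd9* KD or the Cu difference of *Baf180* KD, and almost no gene was. Without *Baf250a* KD Zn replicate 1 the Zn difference of that line was called for fewer members and fewer genes. In *Brd9* KD no member kept its Zn call without NT replicate 2 or Zn replicate 1, or without either scr Zn library. Almost no gene was called there either. The Cu difference of *Baf180* KD was also called for no member without its own Cu replicate 1 or NT replicate 2, and for fewer without scr Cu replicate 2. It was called for more members without scr Cu replicate 1 or scr NT replicate 1, and over all genes the calls moved the same ways. The Cu difference of *Brd9* KD gained calls, in members and in all genes, without scr NT replicate 1.

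The distance between KD and scr cells was then measured within each metal, a comparison added after the levels had been seen. With Cu, 4 members were lower in *Baf180* KD than in scr (34.1% of all genes called, 15.4% lower), 6 in *Baf250a* KD (45.7%, 23.5% lower) and 6 in *Brd9* KD (20.2%, 8.36% lower), and 0 were higher. *Hk2*, at 381 and 375 CPM in scr with Cu, was at 263 and 225 in *Baf180* KD, 185 and 190.0 in *Baf250a* KD and 248 and 242 in *Brd9* KD. All 6 KD libraries lay below scr, with log2 fold changes of -0.63, -1.01 and -0.62. With Zn, where the scr libraries were low, *Aldoa* and *Pfkp* were lower and *Ldha* higher in *Baf180* KD (39.7% of all genes called, 16.6% lower and 23.1% higher), *Pfkp* lower and *Ldha*, *Pfkl* and *Gpi1* higher in *Baf250a* KD (44.2%, 19.8% lower and 24.4% higher), and *Pfkp* lower in *Brd9* KD (17.4%, 5.88% lower). *Ldha* with Zn was at 533 and 487 CPM in scr and 982 and 840.0 in *Baf250a* KD, a log2 fold change of 0.85 (SE 0.13, adjusted p = 1.79e-05 in edgeR). With the GC correction, 7 members were lower in *Baf180* KD with Cu, and with Zn 5 were lower and 0 higher in *Baf180* KD and 4 lower and *Ldha* higher in *Baf250a* KD. In the fit of the 4 libraries compared, 5 members were lower and 3 higher in *Baf180* KD with Zn. Leaving out any 1 of the 4 libraries compared left 2 or 3 members lower in *Brd9* KD with Cu. With Zn, 1 was called in *Baf180* KD without scr Zn replicate 1, 2 in *Baf250a* KD without its replicate 1, and 0 in *Brd9* KD without replicate 2 of either line.

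The steps that the 10 members leave out, and the gene lists after them, are described by counts in the untreated KDs, to be read against the 41.0%, 57.8% and 29.2% of all genes called there in either direction. *Gapdh*, glyceraldehyde-3-phosphate dehydrogenase and often used as a reference gene, was at 1042 ± 19.2 CPM (SD, n = 2) in untreated scr cells and lower in every KD, by log2 fold changes of -0.41 (SE 0.11), -0.58 (SE 0.10) and -0.30 (SE 0.09) in *Baf180*, *Baf250a* and *Brd9* KD (adjusted p = 0.012 in edgeR, 2.22e-04 and 0.038), and the last was -0.12 and not called after the GC correction. *Pkm*, pyruvate kinase, was the most abundant of these genes at 3316 ± 244 CPM and had log2 fold changes of 0.03, -0.02 and -0.10, none called. *Pgam1*, phosphoglycerate mutase, was called in *Baf180* KD alone (-0.46, against -0.08 and -0.33). Of the muscle forms, *Eno3*, muscle enolase, fell in all 3 KDs (-0.63, -0.64 and -0.59), from 556 ± 80.7 CPM to 356 ± 21.9, 357 ± 6.34 and 365 ± 18.4. *Pfkm* fell in *Baf180* KD (-0.38) and *Brd9* KD (-0.57), with -0.22 in *Baf250a* KD. *Pgam2*, muscle phosphoglycerate mutase, was barely counted, at 0.423 ± 0.058 CPM in scr, 1.38 ± 0.387 in *Baf180* KD and 1.46 ± 0.460 in *Baf250a* KD (1.69 and 1.76, both called). Of the 21 other genes for enzymes of the pathway, 13, 12 and 11 were tested, of which 4, 2 and 3 fell and 2, 2 and 1 rose (*Eno2*, neuronal enolase, by 0.86 in *Baf250a* KD). These are 6 of 13, 4 of 12 and 4 of 11 called, beside the 41.0%, 57.8% and 29.2% of all genes. With Zn in scr cells *Pkm* (-0.44), *Eno3* (-0.52) and *Pfkm* (-0.47) fell, and 0 of 13 rose. In that comparison 17.6% of all genes were called, 7.13% lower, and after the GC correction 13 of 15002 genes.

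Carriers bring glucose in and lactate out. *Slc2a1*, the glucose carrier GLUT1, had a log2 fold change of -1.11 (SE 0.11) in *Baf180* KD, -1.26 (SE 0.10) in *Baf250a* KD and -0.65 (SE 0.09) in *Brd9* KD, all called. *Slc16a1*, the lactate carrier MCT1, fell from 286 ± 13.6 CPM to 151 ± 4.14, 97.6 ± 0.0571 and 192 ± 10.6 (-0.91, -1.55 and -0.55 in *Baf180*, *Baf250a* and *Brd9* KD). *Slc16a3*, the lactate exporter MCT4, rose in *Baf250a* KD (1.28, SE 0.15), from 11.8 ± 2.17 to 28.8 ± 3.05 CPM. In all, 3 of 5, 3 of 6 and 3 of 5 carriers tested fell, and 0, 2 and 0 rose.

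The genes around pyruvate and around fructose-2,6-bisphosphate, which activates phosphofructokinase, moved both ways. *Pdk4*, a kinase that switches off pyruvate dehydrogenase, rose in *Baf180* KD (1.58, SE 0.14) and *Baf250a* KD (2.96, SE 0.12), from 13.5 ± 0.175 CPM (SD, n = 2) to 39.8 ± 5.67 and 104 ± 4.70. *Pdp1*, the phosphatase that reverses this switch, rose in all 3 KDs (1.45, 1.52 and 0.86, the last 0.30 and not called after the GC correction), and *Mpc2*, a subunit of the mitochondrial pyruvate carrier, fell in *Brd9* KD (-0.60). Of the 13 genes of the pyruvate dehydrogenase switch, 2, 6 and 2 rose and 2, 4 and 3 fell, or 4, 10 and 5 called, beside 41.0%, 57.8% and 29.2% of all genes. *Pfkfb3*, which makes fructose-2,6-bisphosphate, rose in *Baf250a* KD (1.24, SE 0.15) and *Brd9* KD (0.76, SE 0.18), and *Pfkfb2* rose in *Baf180* KD (0.48) and *Baf250a* KD (0.84). *Tigar*, which breaks it down, fell in all 3 KDs (-0.49, -1.02 and -0.48). Of 5 such genes tested, 1, 2 and 1 rose and 1, 2 and 1 fell.

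Gluconeogenesis and glycogen genes also split. *Pcx*, pyruvate carboxylase, rose in all 3 KDs (0.96, 1.66 and 0.64), and *Pck2*, the mitochondrial PEP carboxykinase, fell in *Baf180* KD (-0.54) and *Baf250a* KD (-1.13). Of 3 gluconeogenesis genes tested, 1 rose in each KD and 1, 2 and 0 fell. *Ugp2*, which makes UDP-glucose for glycogen, fell in all 3 KDs (-1.27, -1.35 and -0.95), and *Phkb*, a phosphorylase kinase subunit, rose in all 3 (0.88, 1.36 and 0.54). Of 10 glycogen genes tested, 5, 3 and 3 fell and 2, 1 and 1 rose.

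Of the HIF pathway, genes of the oxygen sensor and other known HIF targets, 7, 4 and 7 fell and 5, 11 and 1 rose in *Baf180*, *Baf250a* and *Brd9* KD, of 21, 22 and 20 tested. The 12, 15 and 8 called stand beside 41.0%, 57.8% and 29.2% of all genes. The median log2 fold change was -0.04, 0.28 and -0.27. *Egln3*, a HIF prolyl hydroxylase and HIF target, rose in *Baf180* KD (1.15, SE 0.12) and *Baf250a* KD (1.04, SE 0.12), and *Bnip3*, a mitophagy gene, rose in *Baf250a* KD (1.396, SE 0.12). *Ddit4*, an inhibitor of mTORC1 signaling, fell in all 3 KDs (-1.14, -0.82 and -1.31), as did *Ndrg1* (-0.75, -1.28 and -1.02). Of the regulators of glycolysis, 9, 10 and 9 were tested, of which 3, 6 and 2 rose and 2, 2 and 2 fell. *Ppargc1a*, a coactivator of mitochondrial genes, fell in all 3 KDs (-1.17, -3.06 and -1.44). *Klf7* rose in all 3 (1.36, 1.90 and 0.51). *Txnip*, an inhibitor of glucose uptake, fell in *Baf180* KD (-0.62) and *Brd9* KD (-1.11) and rose in *Baf250a* KD (0.87).

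The median profile of the 10 members over the 12 conditions, in log2 CPM centred on each gene's mean, was highest in scr NT (0.47) and scr Cu (0.43) and lowest in *Baf180* KD NT (-0.29). It stood at -0.07 in scr Zn, and in the KD lines with Cu it was at 0.15 (*Baf180*), -0.0033 (*Baf250a*) and 0.12 (*Brd9*). *Tpi1* lay nearest to this profile (root mean square difference 0.07), and *Pfkp* farthest (0.65). Among 7718 other genes with a mean of at least 20 CPM, the 5 nearest to it were *Atp6v0b* (0.07), *Bsg* (0.07), *Spns1* (0.08), *Wipi2* (0.09) and *Usp20* (0.09). Of the 7718, 2 lay nearer than *Tpi1*, and 8 to 341 nearer than *Pgk1*, *Aldoa*, *Eno1* or *Hk2*. Nearer than *Hk1*, *Pfkl*, *Gpi1*, *Ldha* and *Pfkp* lay 574, 1400, 2217, 2281 and 7192. The profile, itself the median of the members, is therefore not particular to these enzymes. *Atp6v0b* encodes a subunit of the vacuolar proton pump, and *Bsg* encodes basigin, the partner that carries MCT1 and MCT4 to the cell surface. *Bsg* itself had log2 fold changes of -0.59, -0.43 and -0.53 in untreated *Baf180*, *Baf250a* and *Brd9* KD. It was picked for its likeness to a profile that is highest in scr NT, so these falls are no separate result. The likeness is over 12 condition means that share libraries and their GC trends, and it is given as a description.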

How the data were processed

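RNA-seq counts per gene were analysed for 24 libraries of C2C12 cells. Ribosomal RNA was removed, directional libraries were sequenced as read pairs, and the authors aligned reads to mm10 with STAR, kept uniquely mapped ones and counted them by strand with featureCounts; the deposited values are whole-number counts, not normalized. The tool versions are not given in the sources used here. The authors' tables of DESeq2 fold changes and p-values were not used. Samples were grouped by title, because their treatment field disagrees with it.

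Counts were scaled by TMM and tested with the quasi-likelihood test of edgeR 4.0.16 (R 4.3.3) after filterByExpr. Each untreated KD was compared with scr in 4 libraries and each metal response in the 6 libraries of a line. Differences of responses, and lines over the 3 treatments, came from all 24. A gene was called at a Benjamini-Hochberg adjusted p under 0.05 over all genes tested, with no minimum fold. CPM are scaled over the 24 libraries, whereas tests are scaled within the libraries fitted. For the GC correction, splines of 5 degrees of freedom on the GC content and on the length of the longest transcript were fitted in each library (values for 53292 of 55291 symbols). Alternatives were RLE size factors (edgeR), no filter, the GC correction, a replicate block, DESeq2 1.42.0, other sets of libraries and leaving out each library. The fits were tested on simulated data. Genes outside the 10 were named by a rule: per list and untreated comparison, up to 2 called genes with the largest absolute log2 fold change and a mean of at least 5 CPM, with the isozymes and steps that the 10 leave out, and the 5 genes nearest to the members' profile. Values of a named gene are given in each KD where it was called. The members and lists were chosen with earlier results of these data known. The comparisons within a metal were added after the data had been seen. Replicates are labelled as independent, and with 2 per condition p-values rest on few residual degrees of freedom.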

Additional observations from a re-analysis of the deposited data

Results flagged for a closer look

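Some metal responses differed between a KD and scr cells by a test of the difference itself (edgeR, adjusted p under 0.05). All values are log2 differences, KD minus scr, and all share the scr libraries. For Cu, *Baf180* KD differed in *Ldha* (0.63), *Pfkl* (0.66) and *Pgk1* (0.78). For Zn, *Baf180* KD differed in *Hk1* (0.62), *Hk2* (0.52), *Pfkl* (0.98), *Aldoa* (0.67), *Tpi1* (0.72), *Pgk1* (0.87) and *Ldha* (0.82). For Zn, *Baf250a* KD differed in *Hk1* (0.72), *Hk2* (0.73), *Pfkl* (1.08), *Pfkp* (0.77), *Aldoa* (0.72), *Tpi1* (0.82), *Pgk1* (0.88) and *Ldha* (0.92). For Zn, *Brd9* KD differed in *Hk1* (0.53), *Hk2* (0.52), *Pfkl* (0.95), *Aldoa* (0.58), *Tpi1* (0.59), *Pgk1* (0.80) and *Ldha* (0.74). After the GC correction 0, 1, 4 and 0 of these groups' members were called, beside 115, 947, 2659 and 0 of 16524 genes.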

How the results depend on the processing

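Precision is limited by 2 libraries per condition and by 1 *Baf250a* KD Zn library of 495778 counts. No member changed from called in one direction to called in the other. Of the single-gene values under the alternatives other than leaving out 1 library, 105 newly passed the threshold and 56 no longer did. For the counts below that changed, the cause was not tested, and the number of all genes called changed between settings as well. After the GC correction the members called became 0 for Zn in scr (7 before), 0 for Zn in *Baf250a* KD, 1 for Cu in *Brd9* KD, 0 for the Cu difference of *Baf180* KD, 1, 4 and 0 for the Zn differences of *Baf180*, *Baf250a* and *Brd9* KD, 9, 4 and 8 for *Baf250a* against *Baf180*, *Brd9* against *Baf180* and *Brd9* against *Baf250a* KD, 7 and 5 for *Baf180* KD against scr with Cu and with Zn, and 2 for *Brd9* KD against scr with Zn. Without a filter they became 7 for Cu in *Brd9* KD, 6 and 2 for the Cu differences of *Baf180* and *Brd9* KD, 9 for *Brd9* KD against scr over the treatments, 6 and 4 for *Baf250a* and *Brd9* against *Baf180* KD, and 2 for *Brd9* KD against scr with Zn. With DESeq2 they became 0 for Zn in *Baf250a* KD, 4 for Cu in *Brd9* KD, 6 for the Cu difference of *Baf180* KD and 2 for *Brd9* KD against scr with Zn, which RLE factors also gave. The fit of 24 libraries called 1 for Cu in *Brd9* KD, and the fit of the 4 libraries called 8 for *Baf180* KD against scr with Zn. For Zn in scr, all genes called split into 1576 higher and 1069 lower in 6 libraries and 2092 higher and 2876 lower in 24.

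Deviations of same-numbered replicates correlated at -0.18 to 0.28 within lines, and at 0.13 to 0.25 in *Baf180* KD. The labels give the numbers no shared batch and there are only 2, so they were not taken to pair libraries. With the number as a replicate block, 0 members were called for Zn in scr, beside 14 of 15002 genes (2645 without the block). For *Brd9* KD against scr with Cu the block called 3 members, beside 2293 of 16524 genes (3332 without it). In *Baf180* KD it called 7 members for Cu and 0 for Zn (6 and 0 without it), while all genes called went from 2097 to 3892 and from 3 to 657. Leaving out 1 library gave 8 to 9, 6 to 9 and 6 to 10 members in untreated *Baf180*, *Baf250a* and *Brd9* KD. It gave 0 to 7 for Zn in scr, 0 to 6 for Cu in *Baf180* KD, 0 to 7 for Zn in *Baf250a* KD and 0 for the other metal responses. The Cu differences ran from 0 to 5, 0 to 0 and 0 to 1 and the Zn differences from 2 to 10, 1 to 9 and 0 to 8 in *Baf180*, *Baf250a* and *Brd9* KD. Against scr over the treatments they ran from 7 to 7, 7 to 8 and 5 to 8, and between KDs from 1 to 3, 1 to 2 and 5 to 6. Within a metal they ran from 3 to 3, 5 to 7 and 2 to 3 with Cu, and 1 to 3, 2 to 5 and 0 to 1 with Zn. A lone library in such a fit is assumed to vary like those of the other groups. The number of all genes called moved between these fits as well, so the ranges are not particular to the members.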
